A study of Drosophila melanogaster with 3 samples.

Results

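Binding of Spalt-related (salr) was examined at 9 genes that drive or restrain cell division and growth in Drosophila melanogaster: stg, CycA, CycB, CycD, CycE, E2f1, Myc, dap and fzy. The genes were taken by name from 13945 protein-coding genes on the major chromosome arms, and each was given a window of its annotated span plus 5 kb on either side. A summit, the position of highest signal in a peak, was assigned to a gene when it lay in that window. The authors' list of peaks thresholded by irreproducible discovery rate (IDR), a measure of how alike peaks rank between replicates, held 27 such summits out of 6485 on the dm6 build. A peak in this list need not be found in every single replicate.

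The data are ChIP-seq, sequencing of chromatin fragments recovered with an antibody, from whole prepupae of mixed sex. The flies are a transgenic line with GFP fused to the C-terminus of salr, and the antibody was against GFP. There was a single group, salr-GFP, with 3 biological replicates of 1 library each, so the values describe binding and no condition was compared. The animals' age within the stage is given as unknown. Whole animals mix many tissues, so strong binding in few cells and weak binding in many cells cannot be told apart. Each peak carries a signal value, the authors' own score without a stated scale, which ranks peaks within a list. The IDR list and the list called on the pooled replicates share their values and ranks, whereas the values of the single replicates are on other scales. The lists give no read totals, so sequencing depth is unknown.

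The members act at successive steps of the cycle. Cyclin D (CycD) with its kinase promotes growth and G1 progression, Cyclin E (CycE) drives entry into S phase, and E2f1 is the activating transcription factor of S-phase genes. Dacapo (dap), a CIP/KIP-family inhibitor, restrains Cyclin E and its kinase. String (stg), a Cdc25-type phosphatase, triggers mitosis together with Cyclins A and B (CycA, CycB), and Fizzy (fzy), the fly Cdc20, directs the destruction of mitotic cyclins. Myc drives cell growth and ribosome production. Salr is a zinc-finger factor best known for patterning the wing and other imaginal tissues, which still cycle or pause around the onset of metamorphosis.

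The DNA of 4 of the 27 summits is shown here, as examples from E2f1, Myc, CycE and stg. They were not picked by signal value alone. The CycB summit, at a signal value of 331, is left out although the stg summit shown has 325. The dap summits, of which the stronger has 166, are also left out. Each line holds the strongest IDR summit of a gene with 100 bp to each side, read from the RefSeq Release 6 genome, which is the dm6 assembly, on the plus strand. Capitals mark every match on either strand to 8 words searched, where matches may overlap. The words were GAGAG for GAGA factor, CACGTG for the Myc-type E-box, CAGGTAG for Zelda, TTCGCGC for E2F, TATCGAT for DREF, TGANTCA for AP-1, GATAAG for GATA factors and the AT-rich word ATATT.
E2f1, chr3R:21651121-21651321: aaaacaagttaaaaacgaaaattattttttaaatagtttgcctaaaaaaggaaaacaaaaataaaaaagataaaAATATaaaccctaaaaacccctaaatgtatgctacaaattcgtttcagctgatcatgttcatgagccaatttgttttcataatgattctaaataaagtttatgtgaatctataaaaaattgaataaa
Myc, chrX:3381832-3382032: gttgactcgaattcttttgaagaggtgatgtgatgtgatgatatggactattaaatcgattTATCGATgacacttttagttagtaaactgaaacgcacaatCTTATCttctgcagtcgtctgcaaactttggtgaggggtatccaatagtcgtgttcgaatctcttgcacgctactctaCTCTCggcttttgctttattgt
CycE, chr2L:15747076-15747276: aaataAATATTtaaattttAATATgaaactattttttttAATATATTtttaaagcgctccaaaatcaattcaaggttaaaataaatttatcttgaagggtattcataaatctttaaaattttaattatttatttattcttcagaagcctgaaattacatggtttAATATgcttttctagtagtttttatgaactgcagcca
stg, chr3R:29256256-29256456: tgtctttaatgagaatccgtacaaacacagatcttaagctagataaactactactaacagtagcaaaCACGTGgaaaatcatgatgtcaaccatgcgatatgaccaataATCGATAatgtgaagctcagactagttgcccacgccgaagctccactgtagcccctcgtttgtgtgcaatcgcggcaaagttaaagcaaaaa
The E2f1 and CycE sites are poor in G and C, at 22.4% and 20.4% GC. Only 2.36% and 0.848% of the 6485 IDR windows had a lower GC content than the E2f1 and the CycE window. The Myc and stg sites had 39.3% and 41.8% GC, and 74.1% and 82.6% of IDR windows lay below them.

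Binding was uneven over the 9 genes. E2f1 held 15 IDR summits, Myc 4, stg 3, CycE 2, dap 2 and CycB 1, whereas CycA, CycD and fzy held none. Thus 6 of 9 genes had a summit in the window, against 38.8% of all protein-coding genes. The 6485 best-ranked peaks of each replicate, as many as the IDR list holds, also gave 6 of 9 genes in replicates 1, 2 and 3, where the background was 38.9%, 43.1% and 43.0%. At 2 or more summits, 5 of 9 genes passed, against 20.5% of all genes. Longer windows hold more summits, and the windows of neighbouring genes share them, so these shares rank genes of unlike length together. In all, 12 of the 27 summits also lay in the window of another protein-coding gene. This share was not computed over the whole IDR list. Of the 27 summits, 20, 17 and 18 were kept without replicates 1, 2 and 3 when each had to be found in both other replicates. The same rule kept 4046, 4102 and 4359 of all 6485 IDR summits.

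**Figure D1:**
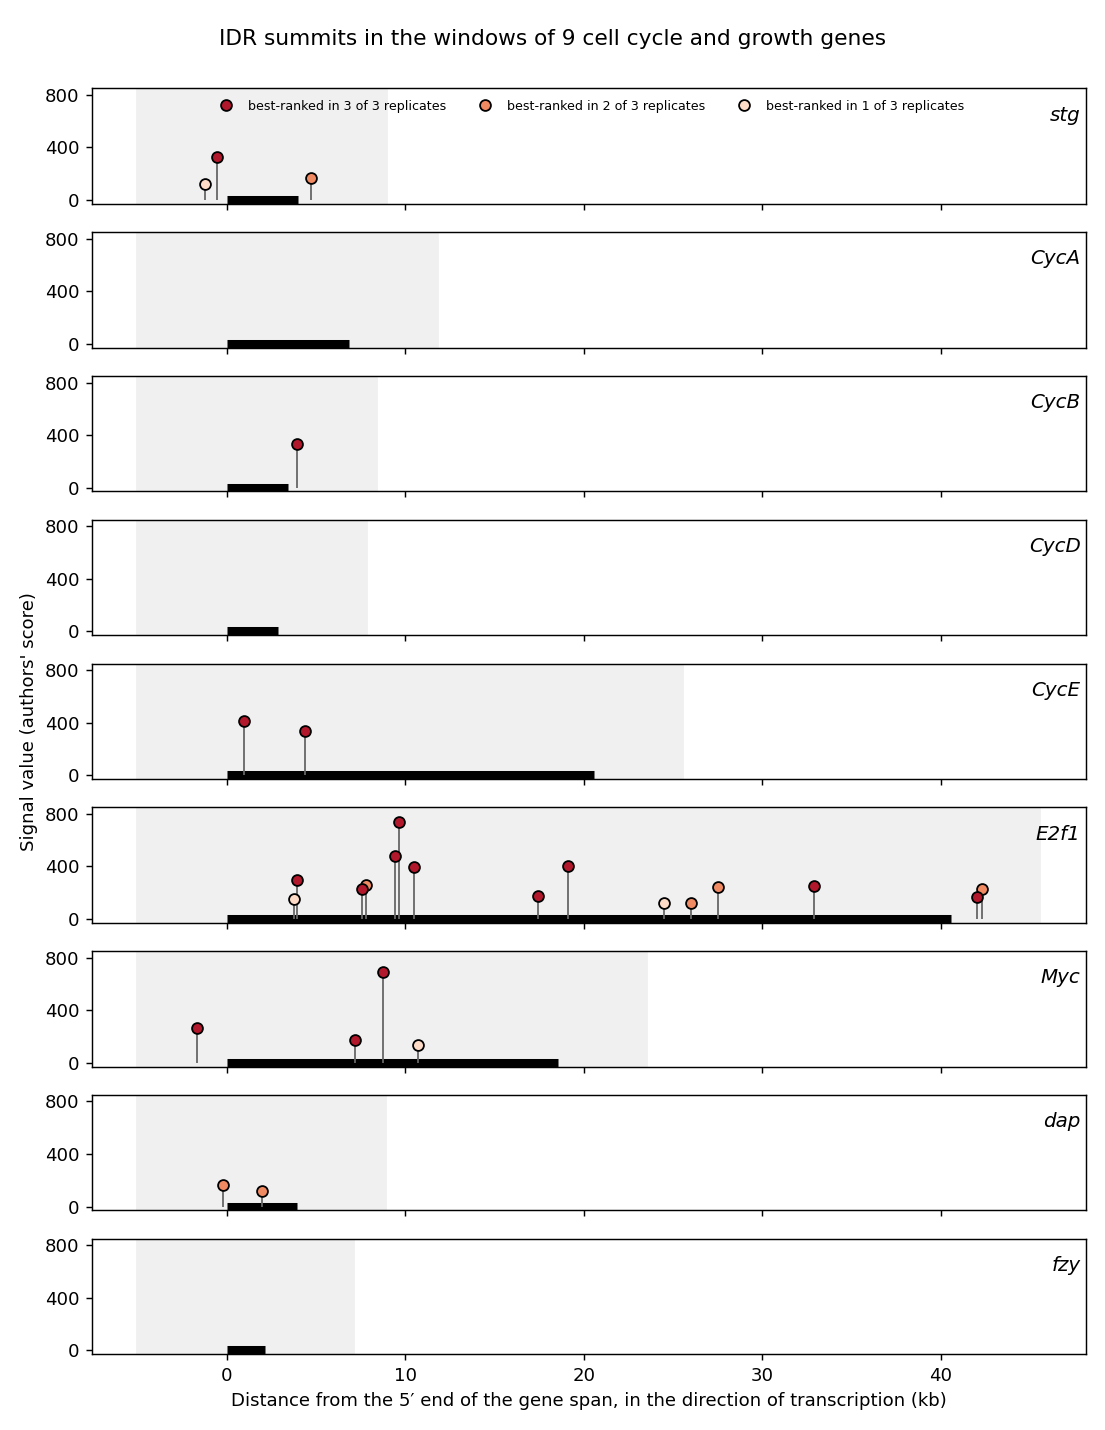
IDR summits in the windows of the 9 genes. The x axis is the distance from the 5′ end of the gene span in kb, the y axis the signal value, the black bar the gene span and the grey area the window of 5 kb on either side; colour gives how many of the 3 replicates matched the summit within 100 bp among their best-ranked peaks. E2f1 holds 15 of the 27 summits, and CycA, CycD and fzy hold none.

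E2f1 (FBgn0011766, 3R 21620304 to 21660871, minus strand) was the most densely bound of the genes. Its 15 summits correspond to 2.97 per 10 kb of window, and 98.1% of protein-coding genes had a lower density. Only 17 genes, 0.122% of those measured, held 15 or more. The replicates gave 16, 16 and 18 best-ranked summits in replicates 1, 2 and 3, a mean of 16.7 ± 1.15 (SD, n = 3). Of the 15 IDR summits, 11 lay in the window of no other protein-coding gene, a count not made over the whole IDR list. When neighbouring summits within 500 bp were counted once, 11 remained, and 5600 of all 6485 IDR summits did. With replicates 1, 2 and 3 left out in turn, and a match required in the remaining pair, the count was 12, 10 and 9.

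The strongest site of the whole set lay in the first E2f1 intron, at chr3R:21650977-21651230 with the summit at 21651221. It had a signal value of 741 and rank 189 of the IDR list. In replicates 1, 2 and 3 it ranked 232, 186 and 165, with signal values of 318, 233 and 189. The replicate summits lay 2, 9 and 16 bp from the IDR summit, and 9211 bp separated it from the nearest E2f1 start site. The nearest start site of any gene, 4920 bp away, was that of the nested lncRNA gene CR46057. The site is thus placed within a narrow stretch in every replicate, far from a start site of the gene.

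Of the E2f1 summits, 13 fell into 2 long introns of the transcript with the largest introns, and 2 lay downstream of the gene. The first intron, 14.7 kb long, held 7 summits, and the second, 18.7 kb long, held 6. In the first intron, 5 summits lay within 2.93 kb, between 21650381 and 21653312, with signal values from 228 to 741. Such a density, 5 or more in 3 kb, occurred in 0.186% of protein-coding gene windows. The 5 include neighbours less than 500 bp apart, 21651221 with 21651421 and 21653087 with 21653312. The share counts such neighbours singly and was not computed for merged summits. The stretch length was chosen after the values were seen, and no test was made. The second-ranked summit of the gene, at 21651421, had a signal value of 478 and ranks of 1094, 713 and 1924 in replicates 1, 2 and 3. The third, at 21641756 in the second intron, had a signal value of 401 and ranks of 1230, 754 and 652, and was nearest to the lncRNA gene CR46056, 3104 bp away.

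An E2f1 start site was itself marked more weakly. A summit at 21633376, with a signal value of 243, lay 303 bp upstream of an internal start site, inside the second intron of the longer transcripts. It was matched in replicates 2 and 3, at ranks 1446 and 2494, and had no entry within 100 bp in replicate 1. Replicate 1 did hold an entry 429 bp from an E2f1 start site, at rank 3671. The 2 summits downstream of E2f1, with signal values of 227 and 169, lay 463 and 171 bp from a start site of InR. That gene encodes the insulin receptor, and these summits may be counted with it as well. A further summit just outside the window, 5207 bp from the E2f1 span, had a signal value of 195.

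Myc (FBgn0262656, X 3373159 to 3391697, plus strand) carried the second strongest site. It lay at chrX:3381760-3382080 with the summit at 3381932, in the second intron, which is 8.15 kb long. Its signal value was 694, at rank 236 of the IDR list, and its ranks were 213, 250 and 273 in replicates 1, 2 and 3. The signal values in these lists were 326, 215 and 162. All 3 replicates placed the summit within 12 bp of that in the IDR list, 8773 bp from the Myc start site. The lncRNA gene CR44999 has the same start position, so the 2 genes cannot be told apart by distance.

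Beside this site, Myc had a summit 1664 bp upstream of its start, with a signal value of 268 and ranks of 1756, 2504 and 2246 in replicates 1, 2 and 3. Both remaining summits lay in the same intron as the strongest, at signal values of 176 and 133. The weaker of them was best-ranked in replicate 2 alone. The Myc start site itself had no IDR summit within 500 bp. The pooled list held an entry 71 bp away with a signal value of 94.6, at rank 8509, whereas the lowest signal value in the IDR list was 116. Best-ranked summits in the Myc window numbered 4, 4 and 5 in replicates 1, 2 and 3 (mean 4.33 ± 0.577, SD, n = 3), and 5.87% of protein-coding genes held 4 or more IDR summits. For its window of 28.5 kb the density was 1.40 IDR summits per 10 kb, and 86.0% of genes had a lower density.

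**Figure D2:**
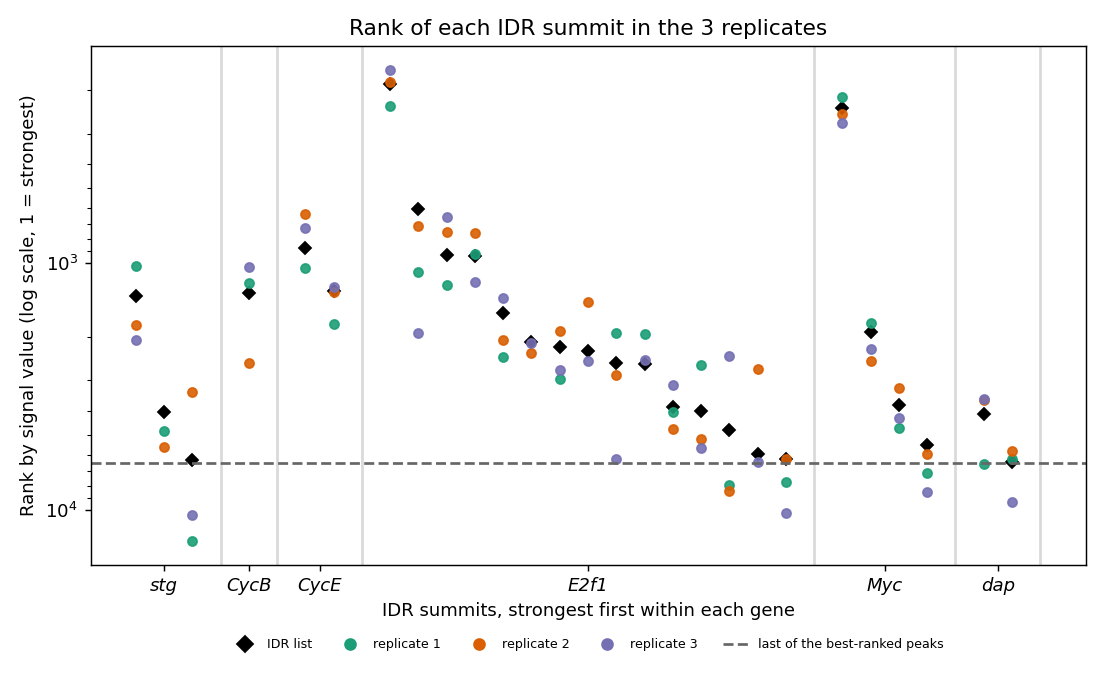
Rank by signal value (log scale, strongest at the top) of each of the 27 IDR summits in the IDR list and in replicates 1, 2 and 3, for entries within 100 bp. The dashed line is rank 6485, the last best-ranked peak. The strongest E2f1 and Myc summits rank between 165 and 273 in every replicate, whereas weak summits fall on both sides of the line.

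Among the cyclins, CycE and CycB had a summit and CycA and CycD had none. CycE (FBgn0010382, 2L 15727581 to 15748150, minus strand) held 2, and both were matched in all 3 replicates. The stronger lay at chr2L:15746926-15747425, with its summit at 15747176 and a signal value of 410. Its ranks were 1047, 635 and 723 in replicates 1, 2 and 3, with signal values of 171, 148 and 111. It lay 566 bp upstream of an internal CycE start site and inside the first intron of the longer transcripts. It thus missed the limit of 500 bp for a promoter by little, and the replicate 1 summit, at 483 bp, fell inside that limit. The stronger CycE summit also lay in the window of ND-B17. The second summit, at 15743742, had a signal value of 334 and ranks of 1779, 1314 and 1258, and the start of the lncRNA gene CR44974 was nearest to it, 2515 bp away. The nearest IDR summit outside the window was 163105 bp from the CycE span.

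CycB (FBgn0000405, 2R 22803521 to 22806948, minus strand) had 1 summit, 527 bp past its 3′ end and 3309 bp from its nearest start site. The signal value was 331, and the ranks were 1206, 2553 and 1045 in replicates 1, 2 and 3. The summit lay between genes and also fell in the windows of blw, stl and CG42260, so it is not assigned to CycB alone.

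CycA (FBgn0000404, 3L 11826719 to 11833578) and fzy (FBgn0001086, 2L 16310956 to 16313097) had no entry of any rank in their windows. This held for the pooled list and for replicates 1, 2 and 3, each of which lists 30000 entries including background. CycD (FBgn0010315, X 15906822 to 15909676) had a single entry, in replicate 2, at rank 25622 with a signal value of 13.2. The nearest IDR summits outside the windows were 41429 bp from CycA, 16579 bp from CycD and 10916 bp from fzy. These short genes have windows of 16.9, 12.9 and 12.1 kb, and 38.8% of all genes had a summit in theirs. A missing entry says that no peak ranked among the 30000, not that the protein is absent there.

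The mitotic activator stg (FBgn0003525, 3R 29251826 to 29255800, minus strand) held 3 summits, at 2.15 per 10 kb, and 94.5% of genes had a lower density. At least 3 summits were held by 10.7% of genes. The strongest, at chr3R:29256106-29256605 with its summit at 29256356, had a signal value of 325. Its ranks were 1027, 1786 and 2063 in replicates 1, 2 and 3, with signal values of 173, 91.5 and 64.2. It lay 556 bp upstream of the first stg start site, and 129 bp from a start site of the neighbour CG45544. The other summits had signal values of 169 and 119. The first of these was nearest to SP1029, 4278 bp from a stg start site, and was best-ranked in replicates 1 and 2. The last was best-ranked in replicate 2 alone. Without replicates 1, 2 and 3 the stg count was 1, 1 and 2. Each stg summit also lay in the window of another protein-coding gene.

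The inhibitor gene dap (FBgn0010316, 2R 9712321 to 9716256, plus strand) had the lowest of the 6 strongest signal values. By density, at 1.44 summits per 10 kb, it was not the lowest. A summit 204 bp upstream of its only start site had a signal value of 166 and rank 4087. It was at rank 3601 in replicate 2 and 3568 in replicate 3. In replicate 1 the entry within 100 bp stood at rank 6568, just below the best-ranked peaks, and a separate summit 421 bp upstream stood at rank 5667. The second dap summit, in its second intron, had a signal value of 117, close to 116, the lowest in the IDR list. It was best-ranked in replicates 1 and 2. In all, dap had 2, 3 and 1 best-ranked summits in replicates 1, 2 and 3, and its IDR count was 1, 0 and 1 without each of them. Each dap summit also lay in the window of sqa, and the stronger in those of CG10459 and CG1773 as well.

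**Figure D3:**
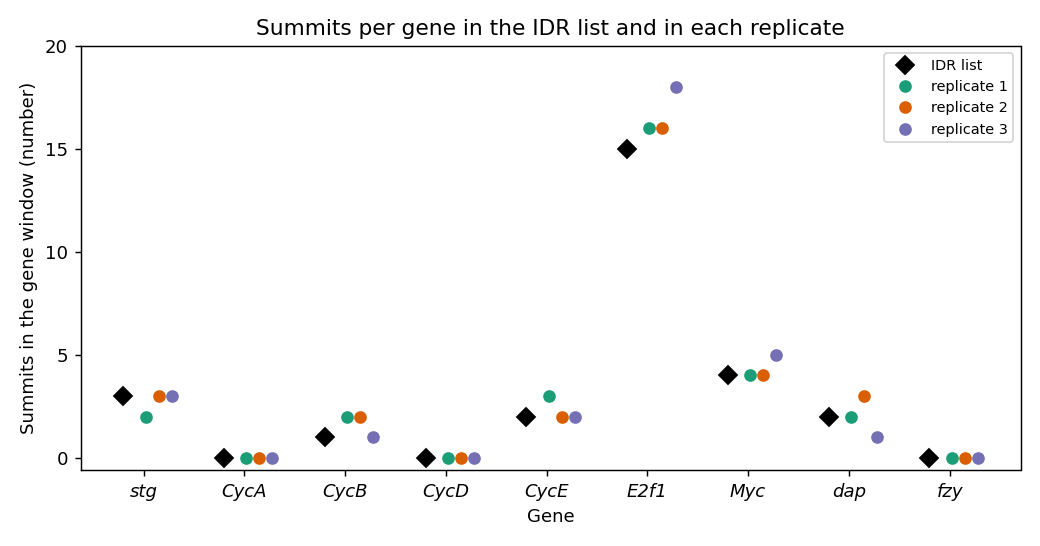
Number of summits (y axis) in the window of each gene (x axis) in the IDR list (diamonds) and among the best-ranked peaks of replicates 1, 2 and 3 (circles). The E2f1 counts of 15, 16, 16 and 18 stand above those of every other gene, of which Myc reaches 5 in replicate 3.

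Of the 27 summits, 2 lay within 500 bp of a member's own start site. These marked E2f1 and dap, 2 of 9 genes (22.2%), against 12.5% of protein-coding genes. The counts were 3, 2 and 3 of 9 genes in replicates 1, 2 and 3, against 12.3%, 15.2% and 15.1%. No test was made of these counts. At 250 bp 1 gene passed, against 8.29% of all genes, and at 1000 bp 4 did, against 15.6%. Without replicate 2 and without replicate 3 the count was 0, and without replicate 1 it was 2, where 9.30%, 9.54% and 9.47% of all genes passed. The distance to the gene's own nearest start ranged from 204 to 14120 bp, with a median of 3507 bp. To the nearest start site of any gene the median was 2889 bp for these summits and 1511 bp over the whole IDR list. E2f1 supplies 15 of the 27 summits, so the members' medians rest largely on it, and they were not computed without it.

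By position, 19 of the 27 summits were intronic (70.4%), 5 lay at promoters (18.5%) and 3 between genes (11.1%). Over the whole IDR list the shares were 48.7%, 29.9% and 18.9%. Of the 5 promoter summits, 2 were at a member's own start and 3 were at those of neighbours. The weakest stg summit, counted as intronic, lay in an intron of the neighbour CG45544 and not of stg. Because E2f1 supplies most summits, the shares rest on it. Without E2f1, 7 of 12 summits were intronic (58.3%), and the density over the windows was 0.843 per 10 kb, against 1.40 for all 9 genes. Summed in the same way, the major arms held 0.484 per 10 kb. The median density per gene was 0 over all protein-coding genes and 0.928 over those with a summit.

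**Figure D4:**
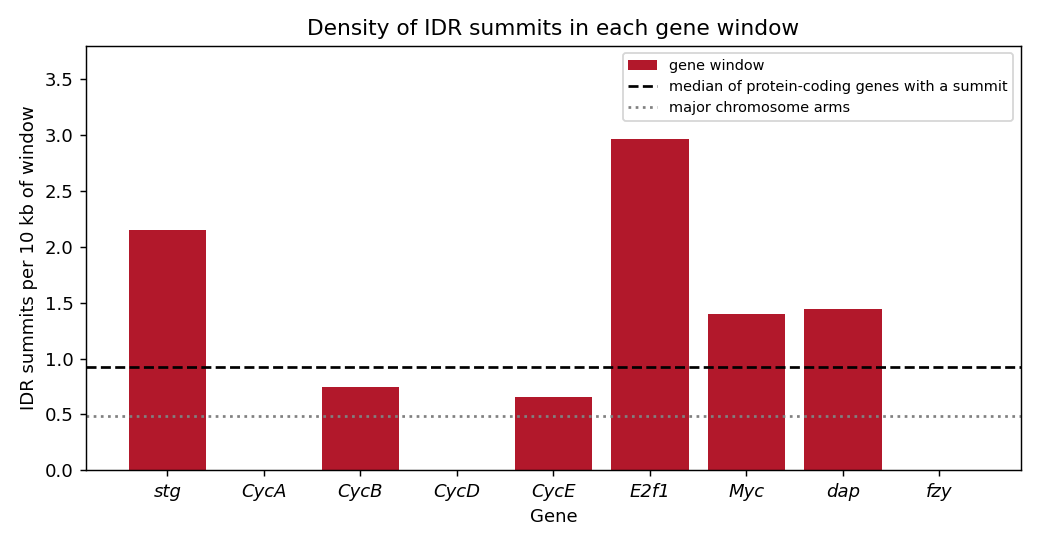
IDR summits per 10 kb of window (y axis, bars) for each gene (x axis), with the median of protein-coding genes that have a summit (dashed, 0.928) and the value of the major arms (dotted, 0.484). E2f1 at 2.97 and stg at 2.15 are highest, CycB at 0.745 and CycE at 0.654 lie between the lines, and 3 genes are at 0.

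The summits spanned ranks 189 to 6435 of the IDR list. Their signal values ranged from 117 to 741 with a median of 243, against 195 over the IDR list, whose highest value was 2035. Without E2f1 the median of the other 12 summits was 222. Of the 27, 16 were among the 3242 stronger peaks of the list and 6 among its 1000 strongest, of which 4 were in E2f1, 1 in Myc and 1 in CycE. Of the members' summits, 16 (59.3%) were matched within 100 bp in the best-ranked peaks of all 3 replicates, against 55.2% of the IDR list. The rest were matched in 2 replicates (7 summits) or in 1 (4 summits), and none was matched in no replicate.

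The sequences at the summits shared no single word. ATATT was found in 15 of 27 windows of 100 bp to each side of the summit (55.6%), against 70.5% of all IDR windows. GAGAG, the core of GAGA factor sites, was found in 9 (33.3%), against 23.2%, and without E2f1 in 3 of 12 windows (25.0%). TATCGAT, the core of DREF sites, was in 4 windows (14.8% against 2.96%), 1 each in E2f1, Myc, dap and stg, and in E2f1 it was a summit by InR. GATAAG, the GATA word, was in 5 windows (18.5% against 9.11%), none of them in E2f1. The Myc-type E-box CACGTG occurred once, in the strongest stg window, and CAGGTAG, the Zelda word, once, in E2f1. Neither TTCGCGC, an E2F-type word, nor TGANTCA, an AP-1 word, was found. The window of the strongest E2f1 site held ATATT alone of the words searched, and that of CycE held 6 matches to it. The Myc window held the DREF, GATA and GAGA words once each. A match describes letters in the window and was not tested as a site.

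Summits also lay near many other genes of the cell cycle. Of 72 other genes of the cycle, among them kinases, replication licensing factors, anaphase-promoting complex subunits and checkpoint genes, 36 had an IDR summit in the window, against 38.8% of all genes, and 17 had at least 2, against 20.5%. Summits within 500 bp of a start site marked 13 of 72 (18.1%), against 12.5% of all genes. The strongest peaks in such windows were at Orc1 (signal value 1210) and Orc5 (1129), which encode subunits of the origin recognition complex, at mr (941), an anaphase-promoting complex subunit gene, and at chif (937), the fly Dbf4. The Orc1, Orc5 and mr peaks were at the promoters of the neighbours Drat, CenG1A and Sox14, whereas the chif peak was in an intron nearest to a chif start site. In all, the strongest peak was nearest to a start of the gene itself in 10 of the 36 and to that of another gene in 26. The same count was not made over all protein-coding genes with a summit, so it is not a trait of these genes. Mnt, whose product opposes Myc, was singled out after its values were seen. It held 13 IDR summits, 3.26 per 10 kb, and 15, 14 and 15 best-ranked summits in replicates 1, 2 and 3.

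The genes most like E2f1 by number of summits, strongest signal value and window length were pigs, rdx and Eip74EF, the last an ETS-factor gene of the ecdysone response. Each had 14 IDR summits, in windows of 63.0, 75.0 and 70.7 kb, with strongest signal values of 506, 657 and 1013. They lay 0.895, 0.902 and 0.944 SD from E2f1 among 5415 genes with a summit.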

How the data were processed

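Per the labels, chromatin was sheared by sonication to 200 to 800 bp. Per the deposited notes on file parentage, each replicate list and the pooled list were made from dm6 alignments and a shared control alignment, and the IDR list from those lists. For the peak caller, no name is given in the sources used here. Signal values are the score of the authors, with no scale stated. The 5 dm6 lists were read, and the dm3 lists were not used. In 86.2% of IDR peaks the summit is the middle of the interval, so the position is no finer than the caller gave it.

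Genes and start sites came from Ensembl release 115 (BDGP 6.54), without transposable elements. Coordinates are 1-based. A summit was called promoter within 500 bp of any start site, and otherwise by the untranslated region, coding exon, noncoding exon, intron or intergenic stretch that held it. Replicates were compared through summits within 100 bp among the 6485 best-ranked peaks of each. Of the 72 further genes, 2 were matched by another symbol (lmg as lmgA, lat as Orc3). The members and lists were chosen with earlier results of these data known, so counts stand beside the share of all protein-coding genes and no test was run on them. Of each gene the 3 strongest summits were to be described, and alternatives varied the window, list, match distance and replicates. Python 3.11.15, SciPy 1.17.1 and matplotlib 3.10.9 were used, and the counting was tested on simulated data.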

Additional observations from a re-analysis of the deposited data

How the results depend on the processing

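Counts followed the strictness of the list and the width of the window. The share of all protein-coding genes moved with each setting too. The number of members with a summit was 6, and between 5 and 6 when each replicate was left out in turn (31.6 to 32.5% of all genes). It was 4 with the span alone (11.8%), 8 with 20 kb (73.0%), 5 among the 3242 strongest peaks (28.2%) and 3 among the 1000 strongest (12.8%). The 27 summits became 16 among the 3242 strongest, 6 among the 1000 strongest, and 17 to 20 without single replicates. The sets without single replicates are smaller by construction, because a summit must be found in both other replicates. They held 4046 to 4359 of all 6485 IDR summits. The count of members with a summit at a start site of their own was 2. It was 1 at 250 bp (8.29% of all genes), 4 at 1000 bp (15.6%), 1 among the 3242 strongest peaks (8.28%), 0 among the 1000 strongest (3.59%), and 0 to 2 without single replicates (9.30 to 9.54%). Without replicate 2 the E2f1 count was 10 and the dap count 0, and without replicate 3 they were 9 and 1. The 16 summits matched in all 3 replicates were 12 at 50 bp and 22 for overlapping intervals, settings for which no share over the whole IDR list is given. Merging summits within 500 bp, an alternative chosen after seeing the data, left 23 of the 27, and 5600 of all 6485 IDR summits. CycA held none in any setting tried, and with 20 kb CycD held 1 and fzy 2. Within 50 bp of the summit ATATT was in 25.9% of the members' windows against 49.1% of IDR windows, and GATAAG in 11.1% against 4.86%. Of 107 values for single genes and words, 85 stayed within 1.5 times the value given or within its interval. Genes and words at 0 could not move where the window or list only shrank, so part of these 85 was fixed in advance. No paired analysis was possible because the series holds a single group.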
